A study of Homo sapiens with 4 samples.

Results

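The miRNAs described here are those made from hairpins inside the human HOX gene clusters: miR-10a, miR-10b, miR-196a, miR-196b and miR-615. They were taken by name, with both strands of each hairpin, which gave 10 of the 1345 miRNAs in the table. The cells were HCT116, a human colorectal carcinoma line, in which doxycycline switches on a short hairpin RNA (shRNA) that targets SAE2, the catalytic subunit of the enzyme that starts SUMO conjugation to proteins. Small-RNA libraries came from a pair of lines, each with its own shRNA (sh1 or sh2). They were labelled minus (2 libraries) or plus (2 libraries), taken to mean uninduced and induced. The labels' protocol describes 3 days of doxycycline for every library, so the contrast rests on the words minus and plus. Minus replicate 1 was the sh1 line, minus replicate 2 and plus replicate 2 were the sh2 line, while for plus replicate 1 the shRNA is unnumbered in the label. The labels do not say whether a line is 1 clone. A doxycycline-treated line without the shRNA was not analysed here, so doxycycline and the knockdown cannot be told apart, and SAE2 mRNA is not measured by these libraries.

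HOX genes encode the homeodomain transcription factors that give body segments and gut regions their identity, and they lie in the clusters HOXA, HOXB, HOXC and HOXD in the order in which they are used along the body axis. The miRNA genes within the clusters tend to be expressed with their HOX neighbours and are themselves regulators of HOX mRNAs. miR-196 is the textbook case of an animal miRNA that directs cleavage of a nearly complementary site, in HOXB8 mRNA, and miR-10b is known to repress HOXD10. A mature miRNA finds its targets mainly through its seed, bases 2 to 8 from the 5′ end, and of the paired strands cut from a hairpin (5p and 3p) one is usually kept.

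Mature sequences from the RefSeq table (GRCh38.p14) matched 9 of the 10 names, miR-10b-5p being the other one. They are shown first because the family relations, and the limits on telling members apart, can be read from them. Capitals mark the seed.

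miR-10a-5p: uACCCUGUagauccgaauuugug
miR-10a-3p: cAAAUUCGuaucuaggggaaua
miR-10b-3p: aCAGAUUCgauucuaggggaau
miR-196a-5p: uAGGUAGUuucauguuguuggg
miR-196b-5p: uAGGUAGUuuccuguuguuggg
miR-196a-3p: cGGCAACAagaaacugccugag
miR-196b-3p: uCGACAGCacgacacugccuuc
miR-615-3p: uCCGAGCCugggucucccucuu
miR-615-5p: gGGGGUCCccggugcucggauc

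miR-196a-5p and miR-196b-5p shared their seed and differed at 1 of 22 bases, A12C, counted from the 5′ end of miR-196a-5p. Reads of these strands can be told apart only where that base is read, and how the submitters' counting treated mismatches is not given in the sources used here, so the split between them is uncertain. miR-196a-5p is cut from the hairpins of 2 genes, MIR196A1 and MIR196A2, and its reads belong to both. The 3p strands of miR-10a and miR-10b held a shared run of 11 bases that began at base 11 of the first and base 12 of the second, so their seeds differed. No other mature name among the 2370 in the RefSeq table had the seed of any of the 9 matched strands. miR-10b-5p was not in that table. Its seed was therefore not compared with that of miR-10a-5p, nor was it checked how well their reads can be told apart.

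In the annotation (GENCODE 29, GRCh38) every one of the 6 hairpins lay within a HOX cluster. MIR10A, at chr17:48579838-48579947 on the minus strand, fell in the untranslated part of an exon of the HOXB4 transcript and in introns of 6 of 13 HOXB3 transcripts. MIR10B, at chr2:176150303-176150412 on the plus strand, ended 810 bases before the start of HOXD4 and lay in an intron of 1 of 4 HOXD3 transcripts. The miR-196 hairpins all preceded a paralog of group 9. MIR196A1, at chr17:48632490-48632559 (minus strand), ended 6134 bases before HOXB9, and MIR196A2, at chr12:53991738-53991847 (plus strand), ended 8272 bases before HOXC9. MIR196A1 also lay in an intron of 1 of 3 HOXB7 transcripts, and MIR196A2 in an intron of 1 of 4 HOXC6 transcripts. MIR196B, at chr7:27169480-27169563 (minus strand), lay between HOXA10 and HOXA9, 3950 bases before the latter, in an exon of 1 and introns of 2 of the 6 HOXA9 transcripts. MIR615, at chr12:54033950-54034045 (plus strand), was intronic in both HOXC5 transcripts and in 1 of 3 HOXC4 transcripts.

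**Figure D1:**
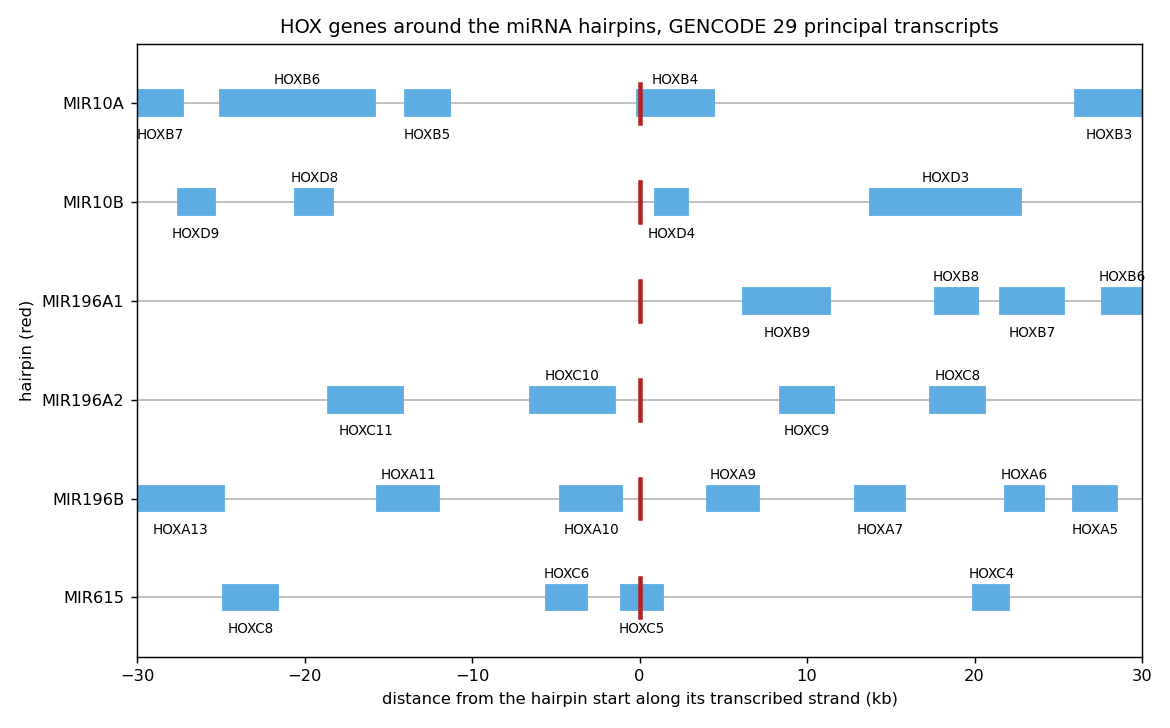
HOX genes (blue, the shortest principal transcript of each gene on the strand of the hairpin, GENCODE 29) within 30 kb of each miRNA hairpin (red), by distance in kb along the transcribed strand. MIR10A and MIR10B sit at or just before the start of HOXB4 and HOXD4, the miR-196 hairpins ahead of HOXB9, HOXC9 and HOXA9, and MIR615 inside HOXC5.

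The hairpins of MIR196A2 and MIR615, neighbours in the HOXC cluster, are printed with the mature strands in capitals, 5p first, because their main strands come from opposite arms.

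MIR196A2: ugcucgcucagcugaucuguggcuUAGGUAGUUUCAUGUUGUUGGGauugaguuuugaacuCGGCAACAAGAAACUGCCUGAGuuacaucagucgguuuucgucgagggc
MIR615: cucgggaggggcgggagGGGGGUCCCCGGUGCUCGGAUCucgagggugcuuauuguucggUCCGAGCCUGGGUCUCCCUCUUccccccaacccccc

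G and C made up 70.8% of the MIR615 hairpin, and 92.5% of the 1562 RefSeq hairpins had a lower share. The other 5 hairpins had between 39.1% (MIR10A) and 48.2% (MIR196A2), below the median of 52.1% over all hairpins.

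The deposited values are reads per mature miRNA after the submitters' scaling between libraries, here called normalised read counts. They summed to between 9700472 and 10519207 per library, which by the worth of 1 read estimated from the low values is 9.57e+06 to 1.03e+07 reads. All 8 markers of colorectal epithelium were above 3 reads in every library, with a summed level of 268904 to 279543 in the minus and 317791 to 317898 in the plus libraries. The 7 blood markers summed to 995 to 1212 in the minus and 1027 to 1205 in the plus libraries, with miR-144-3p at 0 in 2 libraries. Of the stromal and endothelial markers, miR-145-5p and miR-126-3p carried most of a sum of 14118 to 16937 over the 4 libraries, while miR-214-3p lay between 1.03 and 4.09. The muscle, liver and neuron list was mostly miR-9-5p, and its sum was 13919 to 14695 in the minus and 18663 to 20238 in the plus libraries. The part of these cells or lists in the values below was not tested. In bulk RNA, fewer cells that make a miRNA and less of it per cell cannot be told apart.

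The HOX-cluster miRNAs spanned about 4 orders of magnitude, from a strand near the top of the profile to strands of a few reads. Together they made up 1.90% to 1.99% of each library, and miR-10a-5p alone was 79.6% to 80.6% of that. Levels of different miRNAs are compared as normalised read counts, with no correction for length. Each read is taken to be a whole mature strand, which was not checked, and the matched members are 22 or 23 bases long. How evenly different strands were captured was not measured, so the order and ratios of counts need not be those of molecules. In order of mean level the strands were miR-10a-5p, miR-10b-5p, miR-196b-5p, miR-196a-5p, miR-10a-3p, miR-615-3p and miR-10b-3p. Each of these 7 lay above the next one in all 4 libraries, its lowest value exceeding the next one's highest. The last 3, miR-615-5p, miR-196a-3p and miR-196b-3p, overlapped and their order was not resolved.

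**Figure D2:**
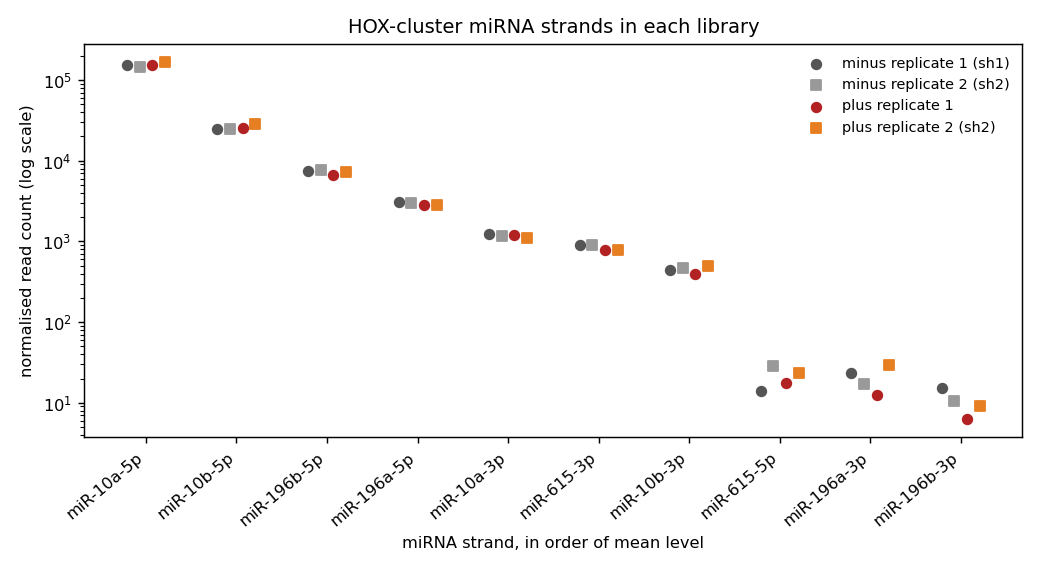
Normalised read count, on a log scale, of the 10 HOX-cluster strands in each of the 4 libraries, in order of mean level. The points of a strand lie close together for the 7 upper strands, and the 3 lowest, between 6.21 and 29.6 counts, scatter and overlap.

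The comparison of plus with minus libraries asked whether induction of the shRNA moved these miRNAs. None of the 10 rose or fell (limma on log2 of the count plus 1, adjusted p at least 0.180 for each, 2 libraries against 2), and none had an unadjusted p under 0.05. Over all 709 miRNAs tested, those with a mean of at least 10, 28.5% passed, 13.4% as rises and 15.1% as falls, and 269 had an unadjusted p under 0.05. All 10 members reached that level. The median size of their log2 change, regardless of sign, was 0.097, against 0.29 over all tested miRNAs, and the signed medians were −0.050 and −0.031. Among miRNAs with a mean of at least 100, where precision is better, 0 of 7 members and 39.6% of all 386 passed. These are counts and medians for a set chosen by name, and no test was made of whether the set differs from other miRNAs. For the 7 members the 95% intervals of the fold change lay between 0.734 and 1.22, so changes beyond those bounds were outside each interval, and smaller ones were not resolved. A p that misses the threshold does not show that a level stayed the same.

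miR-10a-5p, from the HOXB4 region, was the 11th miRNA of the table by mean level. It stood at 154111 and 147059 normalised read counts in minus replicates 1 and 2 and at 154003 and 168066 in plus replicates 1 and 2. The groups overlapped, with plus replicate 1 inside the range of the minus libraries and plus replicate 2 the highest. The means were 150585 ± 4986 and 161035 ± 9944 (SD, n = 2 each), a log2 change of 0.096 ± 0.082 (standard error, limma adjusted p = 0.401).

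miR-10b-5p, from the HOXD4 region and the miR-10 strand best known from invasive tumours, ranked 54th. Its values were 24444 and 24455 in the minus and 25198 and 28211 in the plus libraries. Both plus libraries were above both minus libraries, and most of the distance came from plus replicate 2. The means were 24449 ± 7.86 and 26704 ± 2130.1 (SD, n = 2 each), with a log2 change of 0.12, a 95% interval of −0.042 to 0.29 and a limma adjusted p of 0.276.

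The partner strands of miR-10 gave even less separation. miR-10a-3p had 1225 and 1162 normalised read counts in the minus and 1216 and 1116 in the plus libraries (log2 change −0.034, limma adjusted p = 0.848). miR-10b-3p had 442 and 470.5 in the minus and 392 and 490.3 in the plus libraries (log2 change −0.058, limma adjusted p = 0.796). In both strands the groups overlapped, and for miR-10b-3p the lowest and the highest library were both plus.

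miR-196b-5p, from the HOXA cluster between HOXA10 and HOXA9, was the higher of the miR-196 main strands. It stood at 7551 and 7691 in the minus and at 6612 and 7245 in the plus libraries. Both plus libraries lay below both minus libraries, plus replicate 1 farther than plus replicate 2. The means were 7621 ± 98.8 and 6928 ± 448 (SD, n = 2 each), a log2 change of −0.14 with a 95% interval of −0.32 to 0.038 (limma adjusted p = 0.253).

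miR-196a-5p, the sum of the HOXB and HOXC copies, had 3104 and 2958 normalised read counts in the minus and 2818 and 2843 in the plus libraries. The plus libraries again lay below the minus libraries, here close to each other. The means were 3031 ± 104 and 2830.45 ± 17.6 (SD, n = 2 each), with a log2 change of −0.098 and a 95% interval of −0.29 to 0.094 (limma adjusted p = 0.460).

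miR-615-3p, from the HOXC5 intron, had the lowest adjusted p of the members. Its values were 915 and 896 in the minus and 779 and 783 in the plus libraries. The groups did not overlap, and the distance between them was larger than the distance within either. The means were 905 ± 13.8 and 781 ± 2.26 (SD, n = 2 each), a log2 change of −0.21 with a standard error of 0.12, a 95% interval of −0.45 to 0.020 and a limma adjusted p of 0.180. The unadjusted p was 0.0725. limma takes the spread of a miRNA largely from others of its level, and here that spread exceeded the small one between these libraries.

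Plus and minus libraries did not overlap for 5 of the 10 members, 1 higher in plus (miR-10b-5p) and 4 lower (miR-196a-5p, miR-196b-5p, miR-196b-3p and miR-615-3p). Over all tested miRNAs the share was 62.9%, so non-overlap of 2 against 2 libraries was common in these data.

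**Figure D3:**
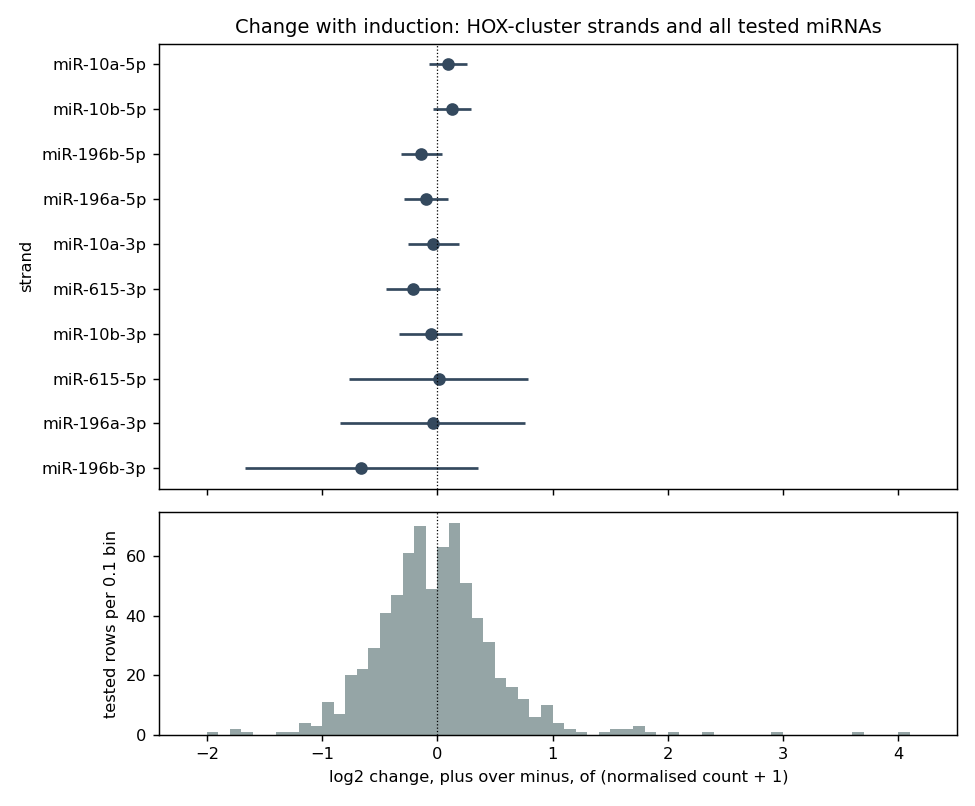
Upper panel: log2 change, plus over minus, of the 10 strands with 95% limma intervals. Lower panel: the number of tested miRNAs in bins of 0.1 on the same axis, from −1.98 to 4.07. Every interval of the upper panel includes 0, and the points of the 7 upper strands lie between −0.21 and 0.12.

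The 3 lowest strands rest on few reads. miR-196b-3p had 15.1 and 10.4 normalised read counts in the minus and 6.21 and 9.20 in the plus libraries, about 26 against 15 reads. All plus values were below the minus values, and the ratio of reads scaled by depth was 0.582 with a 95% exact binomial (Clopper-Pearson) interval of 0.287 to 1.14, which includes 1. Its log2 change of −0.66, with a limma 95% interval of −1.67 to 0.35 and an adjusted p of 0.346, was larger in size than that of 84.2% of the tested miRNAs. miR-196a-3p, which RefSeq places in the MIR196A2 hairpin, had 23.2 and 16.95 in the minus and 12.4 and 29.6 in the plus libraries, about 41 reads in each group, for a ratio of 1.009 (0.638 to 1.59). The plus libraries held both its lowest and its highest value. miR-615-5p had 14.1 and 28.5 in the minus and 17.5 and 23.5 in the plus libraries, about 44 against 40 reads, and its ratio was 0.917 (0.582 to 1.44). Here the minus libraries enclosed the plus libraries. Because a molecule can be read more than once after PCR, these intervals cover counting error only.

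The ratio of paralogs, or of the strands of a hairpin, is taken within a library and does not depend on how libraries were scaled. Of the 7 ratios compared, none could reach a p under 0.33, the smallest that the exact two-sided permutation test gives for 2 against 2 libraries, and adjusted over the 7 all were at least 0.778. miR-10a-5p was 6.30 and 6.01 times miR-10b-5p in the minus and 6.11 and 5.96 times in the plus libraries. The groups overlapped, with a difference of −0.029 on the log2 scale (exact permutation p = 0.667). The sequence of miR-10b-5p was not available here, so how cleanly reads were split between these paralogs is uncertain. miR-196a-5p was 0.411 and 0.385 of miR-196b-5p in the minus and 0.426 and 0.392 in the plus libraries, again overlapping, with a difference of 0.041 (exact permutation p = 0.667). For both pairs of paralogs the log2 ratio varied more between the libraries of a condition than between the condition means.

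The 5p strand had the higher count for miR-10a, miR-10b, miR-196a and miR-196b, and the 3p strand for miR-615, in every library. For miR-196a the ratio is not that of a single hairpin. Its 5p reads belong to both MIR196A1 and MIR196A2, while RefSeq places the 3p strand in MIR196A2 only. Which strand is kept from each of these hairpins was therefore not resolved. The 5p to 3p ratio of miR-10a was 126 and 127 in the minus and 127 and 151 in the plus libraries. For miR-10b it was 55.2 and 52.0 in the minus and 64.3 and 57.5 in the plus libraries, with every plus value higher. Both differences, 0.13 and 0.18 on the log2 scale, had the exact permutation p of 0.33, and with single libraries left out they shrank to 0.0049 for miR-10a (without plus replicate 2) and 0.10 for miR-10b (without plus replicate 1). The same ratio was 500.1 and 740.2 in the minus and 1065 and 787 in the plus libraries for miR-196b, and between 96.1 and 227 over the 4 libraries for miR-196a, in both cases with a 3p strand of few reads. For miR-615 the 5p strand was between 0.0154 and 0.0318 of the 3p strand.

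**Figure D4:**
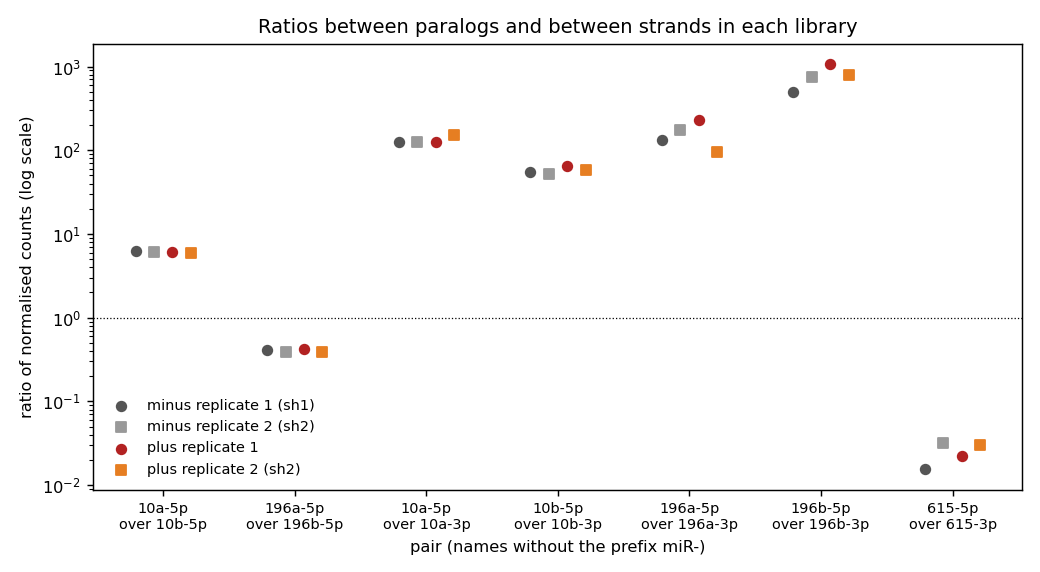
Ratio of normalised read counts, on a log scale, for 2 pairs of paralogs and for the 5p over the 3p strand of 5 miRNAs, 1 point per library. The miR-196a-5p reads belong to MIR196A1 and MIR196A2, and miR-196a-3p is placed in MIR196A2 only. miR-615 alone lies below 1 among the strand ratios, at 0.0154 to 0.0318, and the ratio of miR-10a-5p to miR-10b-5p stays between 5.96 and 6.30.

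miR-10 has relatives outside the HOX clusters, miR-99 and miR-100, whose genes lie with those of miR-125 and let-7. Their mature sequences share the first bases of the seed with miR-10a-5p in place, and a later stretch moved by 1 base. They are printed because this resemblance lies partly inside and partly outside the seed.

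miR-10a-5p: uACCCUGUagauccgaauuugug
miR-100-5p: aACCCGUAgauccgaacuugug
miR-99a-5p: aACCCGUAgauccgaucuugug
miR-99b-5p: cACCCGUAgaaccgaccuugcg

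miR-100-5p shared a run of 11 bases with miR-10a-5p, starting at base 7 of miR-10a-5p and base 6 of miR-100-5p. The run was 10 bases for miR-99a-5p and 5 for miR-99b-5p, and the seeds of all 3 relatives differed from that of miR-10a-5p. Of 9 tested strands of miR-99, miR-100 and miR-125, 2 rose and 3 fell, where 13.4% of all tested miRNAs rose and 15.1% fell, with a median log2 change of −0.11 against −0.031 over all tested miRNAs. miR-99b-5p stood at 175717 and 171352 in the minus and 208249 and 205604 in the plus libraries. Its log2 change was 0.25 (limma adjusted p = 0.0149), a call lost with equal totals (limma adjusted p = 0.0676). miR-100-5p stood at 1523766 and 1562967 in the minus and 1159540.3 and 1456187 in the plus libraries. Its log2 change was −0.25 (limma adjusted p = 0.0427), a call lost under median-ratio scaling (limma adjusted p = 0.263). Both calls were also lost under quantile normalization, where the log2 change of each was 0. That scaling gives equal values to a miRNA that keeps its rank in every library, so a change of 0 there cannot decide whether a call holds. The rise of miR-125a-5p, at a log2 change of 0.34, was lost under quantile normalization too (limma adjusted p = 0.514), so neither rise was called there. So was the fall of miR-100-3p, at −0.69 (limma adjusted p = 0.0756). miR-125b-5p, not called in the main fit, passed there as a fall (log2 change −0.15, limma adjusted p = 0.0193). The fall of miR-125b-1-3p, at a log2 change of −0.71, was kept under all 3 scalings. miR-99a-5p was at −0.11 and did not pass (limma adjusted p = 0.530). Whether the HOX-cluster miRNAs differ from these relatives was not tested.

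miR-196 in turn resembles let-7, the most widely expressed miRNA family. The 7 bases of the miR-196 seed stand in let-7a-5p at bases 3 to 9, 1 base farther from the 5′ end, so the seeds themselves differ.

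let-7a-5p: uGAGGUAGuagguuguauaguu
miR-196a-5p: uAGGUAGUuucauguuguuggg

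The miRNAs whose pattern over the 4 libraries was most like the 2 highest members were found from the distance between log2 profiles, each centred on its own mean. Nearest to miR-10a-5p were miR-21-5p, miR-7-1-3p and miR-4517, at distances of 0.042, 0.055 and 0.060, against a median of 0.46 over 699 miRNAs. miR-10b-5p was nearest to miR-21-5p, let-7f-5p and miR-625-3p, at 0.047, 0.060 and 0.064. miR-21-5p stood at 2014353 and 1926230.5 in the minus and 2049243 and 2278076 in the plus libraries, highest in plus replicate 2 as miR-10a-5p was. With 4 libraries and profiles this flat, the distances describe small differences that include those of library scale.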

How the data were processed

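Small-RNA libraries were made with an Illumina kit with random bases added to the 5′ adaptor, per the labels' protocols. The deposited table gives 1 signal per mature miRNA and library, reads scaled between libraries by the authors, as read from the values. Reads were trimmed with cutadapt per the labels, and the submitters' processing notes list TopHat2 2.0.8b and edgeR as tools and hg19 and GRCh37 as builds, with no roles stated. Which program counted the reads, and against which miRNA annotation, is not given in the sources used here. Columns write sh4 where sample titles write sh2 and were matched by library number and index.

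Plus was tested against minus, two-sided, with limma 3.58.1 (R 4.3.3) on log2(value + 1), letting the prior variance follow the mean level. It covered 709 miRNAs with a mean of at least 10, with Benjamini-Hochberg adjustment at 0.05. A fold change on this scale understates changes of low miRNAs. The fit had 2 residual and 43.0 prior degrees of freedom. It was checked on simulated libraries that held no difference between lines, so that check does not cover such a difference. The minus libraries come from different lines, and the plus libraries do if plus replicate 1 is the sh1 line, so the spread behind the p-values includes that between lines. The worth of 1 read was 1.008, 0.944, 1.03 and 1.02 normalised counts in minus replicates 1 and 2 and plus replicates 1 and 2. Of values under 60, 86.5% to 100% per library lay within 0.1 of a whole read. In the library with the lowest share too many values missed a whole read to treat the table as counts, and no count model was run. Reads rounded from this worth were used for counting intervals of the lowest strands only. The floor of 3 reads was 2.83 to 3.08 normalised counts. None of the 10 members had the same values as another row.

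Members and lists were chosen with earlier results of these data known. All 10 names were members by rule, and all are described. Alternatives were other scalings, pseudocounts, level filters, prior settings, identical rows merged, the line as a block, and each library left out. Sequences come from RefSeq (GRCh38.p14) and gene models from GENCODE 29, and no coordinates were converted.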

Additional observations from a re-analysis of the deposited data

Results flagged for a closer look

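In 4 of the 10 members the sh1 and sh2 lines moved in opposite directions, if plus replicate 1 is taken to be the sh1 library. With 1 library per line and condition the difference between lines was not tested, and 26.8% of all 709 tested miRNAs had opposite signs too. miR-196a-3p had a log2 change of −0.85 in the sh1 line and 0.77 in the sh2 line, on 23 against 12 and 18 against 29 reads. The ratios were 0.533 (95% exact binomial interval 0.242 to 1.12) and 1.61 (0.863 to 3.07), and both intervals include 1. miR-615-5p had log2 changes of 0.29 and −0.27, on 14 against 17 and 30 against 23 reads. miR-10b-3p had −0.18 in the sh1 and 0.059 in the sh2 line. miR-10a-5p had −0.0010 in the sh1 and 0.19 in the sh2 line.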

How the results depend on the processing

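No HOX-cluster miRNA was called under any of the 16 alternatives, where the lowest adjusted p of a member was 0.0982 (limma). The count of called members was also 0 with the replicate number as a block for the shRNA line, a fit that called 216 of all tested miRNAs against 202 without it. The difference between replicates 1 and 2 was hardly shared by the conditions. Its correlation between the minus and the plus libraries was 0.056 over 709 miRNAs. The calls over all miRNAs depended on the processing. They fell to 5 without a level filter or without a trend of variance with level, 103 under quantile normalization and 126 at a minimum mean of 1, and to between 7 and 113 with 1 library left out. At a minimum mean of 100, 141 of 386 passed. The members' zero is therefore read only against the share called in the same fit. Small log2 changes changed sign with the scaling. Under quantile normalization miR-10a-5p was at −0.086, miR-10b-5p at −0.022 and miR-10b-3p at 0.11, and under median-ratio scaling miR-10a-3p was at 0.028, miR-10b-3p at 0.0043 and miR-196a-3p at 0.018. With equal totals miR-615-5p was at −0.044. The cause was not tested. miR-196a-5p, miR-196b-5p, miR-196b-3p and miR-615-3p were below 0 in each alternative that tested them, miR-615-3p from −0.27 to −0.13. Leaving out each library in turn gave log2 changes between −0.097 and 0.028 for miR-10a-3p, −0.22 and 0.10 for miR-10b-3p, −0.64 and 0.55 for miR-196a-3p, and −0.47 and 0.49 for miR-615-5p. The same settings kept the sign but moved the size for miR-10a-5p (0.033 without plus replicate 2 to 0.16 without plus replicate 1) and miR-10b-5p (0.0435 to 0.21, the same libraries). They did so for miR-196b-5p (−0.20 without plus replicate 2 to −0.073 without plus replicate 1), miR-196b-3p (−0.91 to −0.41, the same libraries) and miR-196a-5p (−0.13 without minus replicate 2 to −0.064 without minus replicate 1). The log2 differences of ratios ranged from −0.063 to 0.0049 for miR-10a-5p over miR-10b-5p and from −0.019 to 0.10 for miR-196a-5p over miR-196b-5p. They ranged from −0.65 to 0.53 for the strands of miR-196a and −0.27 to 0.72 for those of miR-615, and, with no change of sign, from 0.0049 to 0.26 for miR-10a, 0.10 to 0.26 for miR-10b and 0.26 to 0.78 for miR-196b. With 1 library in a group, its spread is assumed to be that of the others. Without minus replicate 1, miR-196b-3p fell below the level filter and was not tested. Depth limits what can be said of the 3 strands of a few reads.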
